A study of Mus musculus with 12 samples.

Results

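Cumulus cells and mural granulosa cells of mice stimulated with equine chorionic gonadotropin (eCG, also called PMSG) were compared on 6 arrays, 3 for each cell type, out of 12 arrays in the series. The arrays were chosen by their titles, and the other 6 held the same cell types from unprimed mice, which received no eCG. All mice were B6SJLF1 animals aged 22 days, and the stimulated ones had received 5 IU of eCG by intraperitoneal injection 44 hours before collection. Each cumulus sample held the cells of 200 cumulus-oocyte complexes from a pool of 5 mice, and each mural sample held a similar mass of cells. Only complexes tightly enclosed by cumulus cells were taken, the oocytes were stripped off and discarded, and mural cells were picked as clumps judged healthy by their colour. The labels call the 3 samples of a group biological replicates.

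Both cell types are granulosa cells, the somatic cells that feed the oocyte and make steroids. Mural cells line the wall of the antral follicle, while cumulus cells surround the oocyte and exchange small molecules with it through gap junctions. eCG acts on the receptor for follicle-stimulating hormone and drives follicles to the large antral stage, at which mural cells are known for acquiring receptors for luteinizing hormone and cumulus cells are known for staying under the influence of oocyte factors.

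Each of 41115 rows of the deposited table carried an Ensembl mouse transcript identifier and a log2 signal per array. Rows with the same value on all 12 arrays cannot be told apart, so they were counted once, which left 27365 distinct rows. A distinct row was tested where its value exceeded the 40th percentile of its array on at least 3 of the 12 arrays, and 16809 passed. The percentile, called the filter level below, lay between 6.66 and 6.72 on the stimulated arrays. The trpn controls, for which mouse RNA has no matching sequence, had group means of 4.30 to 4.86 on these arrays. Nothing in the sources used here pairs the transcript identifiers with gene symbols, so markers of cumulus, mural, oocyte, theca, endothelial or blood cells could not be looked up and the cell type labels were not checked against them. Transcripts are therefore given by identifier, at most 2 in each direction for each comparison, and genes are named only where a control row names them. In bulk samples, fewer cells of a type and less RNA per cell cannot be told apart.

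The 2 cell types were clearly separated after eCG. Pearson correlations across the tested rows lay between 0.985 and 0.986 among the 3 cumulus arrays, between 0.987 and 0.989 among the 3 mural arrays, and between 0.924 and 0.946 for the 9 pairs of unlike cell type. The first principal component of the 6 arrays held 75.5% of their variance and placed the cumulus arrays at 33.1 to 39.3 and the mural arrays at -40.6 to -32.9. The second held 9.09% and spread the replicates within both cell types. Replicate spread was similar, with a median SD per row of 0.151 on the log2 scale in cumulus and 0.128 in mural cells.

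Cumulus and mural cells differed in 7102 of the 16809 distinct rows (42.3%; limma, Benjamini-Hochberg adjusted p under 0.05). Cumulus cells had higher values in 4114 rows (24.5%) and mural cells in 2988 rows (17.8%). The 2 numbers were nearly equal under cyclic loess scaling (3658 and 3448), and with the mean of the added bacterial controls (described below) as a covariate their order turned (329 and 587). Most differences were small. The median called difference was 1.48-fold for rows higher in cumulus and 1.51-fold for rows higher in mural cells, and the smallest called difference in either direction was 0.22 on the log2 scale. Over all tested rows the median difference was 0.04, and the central 90% lay between -0.84 (5th percentile) and 0.85 (95th percentile). In 8627 rows (51.3%) the 3 arrays of one cell type all lay above the 3 of the other, in 5025 (29.9%) with cumulus above mural and in 3602 (21.4%) with mural above cumulus. Such separation was found in 97.3% of the rows called higher in cumulus and 94.2% of those called higher in mural cells.

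The largest differences lay on the mural side. A mural excess of at least 4-fold was found in 103 rows (0.613%) and a cumulus excess of that size in 51 (0.303%), and mural cells had the larger number under each of 23 alternative settings. Differences of at least 2-fold were more evenly divided, with 569 rows higher in mural (3.39%) and 508 higher in cumulus cells (3.02%). That order turned when arrays were centred on their medians (519 and 556) and without mural replicate 3 (555 and 612). At the 1st percentile the difference was -1.67, against 1.35 at the 99th. The values by array were as follows, in rows chosen on these same arrays. Over the 508 rows at least 2-fold higher in cumulus cells, the median position relative to the mean of the 6 arrays was 0.68, 0.64 and 0.56 for cumulus replicates 1, 2 and 3, and -0.63, -0.75 and -0.51 for the mural ones. Over the 569 rows with a mural excess of at least 2-fold it was -0.79, -0.68 and -0.70 in cumulus and 0.68, 0.74 and 0.76 in mural cells.

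**Figure D1:**
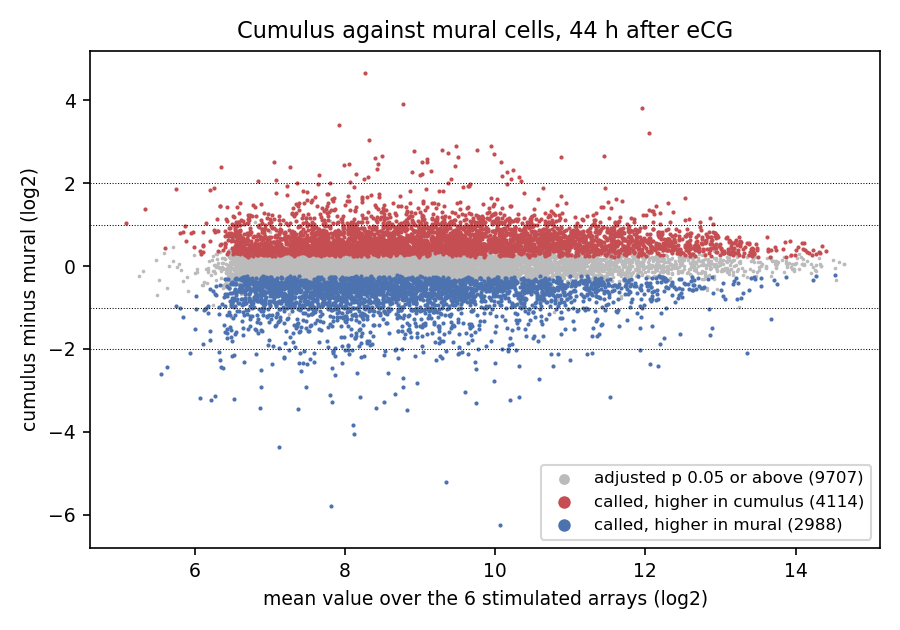
Difference between cumulus and mural cells of stimulated mice (y axis, log2) against the mean of the 6 stimulated arrays (x axis, log2) for 16809 distinct rows; each point is 1 row and dotted lines mark 2-fold and 4-fold differences. Called rows lie on both sides, 4114 above and 2988 below 0, and the points farthest from 0 are on the mural side, down to -6.25.

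Large differences were often ones in which a transcript was near or under the filter level in one cell type. Of the 103 rows at least 4-fold higher in mural cells, 34 (33.0%) lay above the filter level on all 3 mural arrays and on no cumulus array, and 48 (46.6%) lay above it on all 6. Of the 51 rows at least 4-fold higher in cumulus cells, 9 (17.6%) lay above it on all 3 cumulus arrays and on no mural array, and 34 (66.7%) lay above it on all 6. Among all tested rows 87.0% lay above the filter level on all 6 arrays. Such a 3 against 0 pattern in one direction or the other was found in 2.45% of all tested rows, 216 of them for mural and 195 for cumulus cells. Rows called in the comparison at any size lay near the share of all tested rows. Of those higher in cumulus cells 89.5%, and of those higher in mural cells 82.0%, were above the filter level on all 6 arrays.

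ENSMUST00000003659 had the largest difference of all. Its log2 values were 13.28, 12.83 and 13.46 in stimulated mural replicates 1, 2 and 3, and 7.59, 6.57 and 6.65 in stimulated cumulus replicates. The groups lay far apart, and cumulus replicates 2 and 3 were under the filter level, so no fold is given and the size of the difference is not exact. The log2 difference of cumulus minus mural was -6.25 ± 0.28 (SE; limma adjusted p = 4.3e-08), and -7.33 with the added control covariate. In unprimed mice the same row lay at 6.75, 6.50 and 6.40 in cumulus and at 6.36, 7.30 and 6.69 in mural cells, where the groups overlapped (difference -0.24 ± 0.28, limma adjusted p = 0.58).

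Among rows whose mean exceeded the filter level in both cell types, ENSMUST00000034874 had the next largest mural excess. After eCG it lay at 12.04, 11.44 and 12.37 in mural and at 7.00, 6.71 and 6.51 in cumulus cells. The cumulus mean of 6.74 ± 0.25 (SD, n = 3) was at the filter level, so the size of the difference, -5.21 ± 0.43 (SE; limma adjusted p = 3.4e-06), is not exact. It was -7.43 with the added control covariate. Before stimulation the mural arrays were widely spread, at 7.47, 9.85 and 8.70, but all lay above the cumulus arrays at 6.35, 6.23 and 6.58 (difference -2.29 ± 0.43, limma adjusted p = 0.0040). This transcript was thus already higher in mural cells of unprimed mice, unlike ENSMUST00000003659.

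ENSMUST00000033023, which shared its values with 1 other transcript, had the largest cumulus excess among rows whose mean exceeded the filter level in both cell types. It lay at 10.63, 10.51 and 11.04 in the stimulated cumulus arrays and at 6.57, 6.62 and 7.23 in the mural ones. The groups did not overlap, and mural replicates 1 and 2 were under the filter level. The difference was 3.92 ± 0.20 (SE; limma adjusted p = 1.3e-07), a size that is not exact for that reason, and so is its rank. In unprimed mice it was 1.39 ± 0.20 (limma adjusted p = 0.00085), from 9.65, 10.31 and 9.99 in cumulus and 8.66, 8.62 and 8.49 in mural cells.

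ENSMUST00000064795, next on the cumulus side by the same rule, was well above the filter level in both cell types. After eCG the log2 values were 13.98, 13.92 and 13.69 in cumulus cells and 8.93, 10.61 and 10.61 in mural cells, where replicate 1 was the lowest. The difference was 3.81 ± 0.47 (SE), or 14.0-fold (limma adjusted p = 7e-05). On the log2 scale it was 3.25 without stimulated mural replicate 1 and 5.45 with the added control covariate. The cumulus values were alike before stimulation, at 13.88, 14.14 and 13.77, and the unprimed mural values were 12.48, 11.16 and 13.17 (difference 1.65 ± 0.47, limma adjusted p = 0.027). The rise in the difference between the stages did not pass the test (2.16 ± 0.67, limma adjusted p = 0.099).

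**Figure D2:**
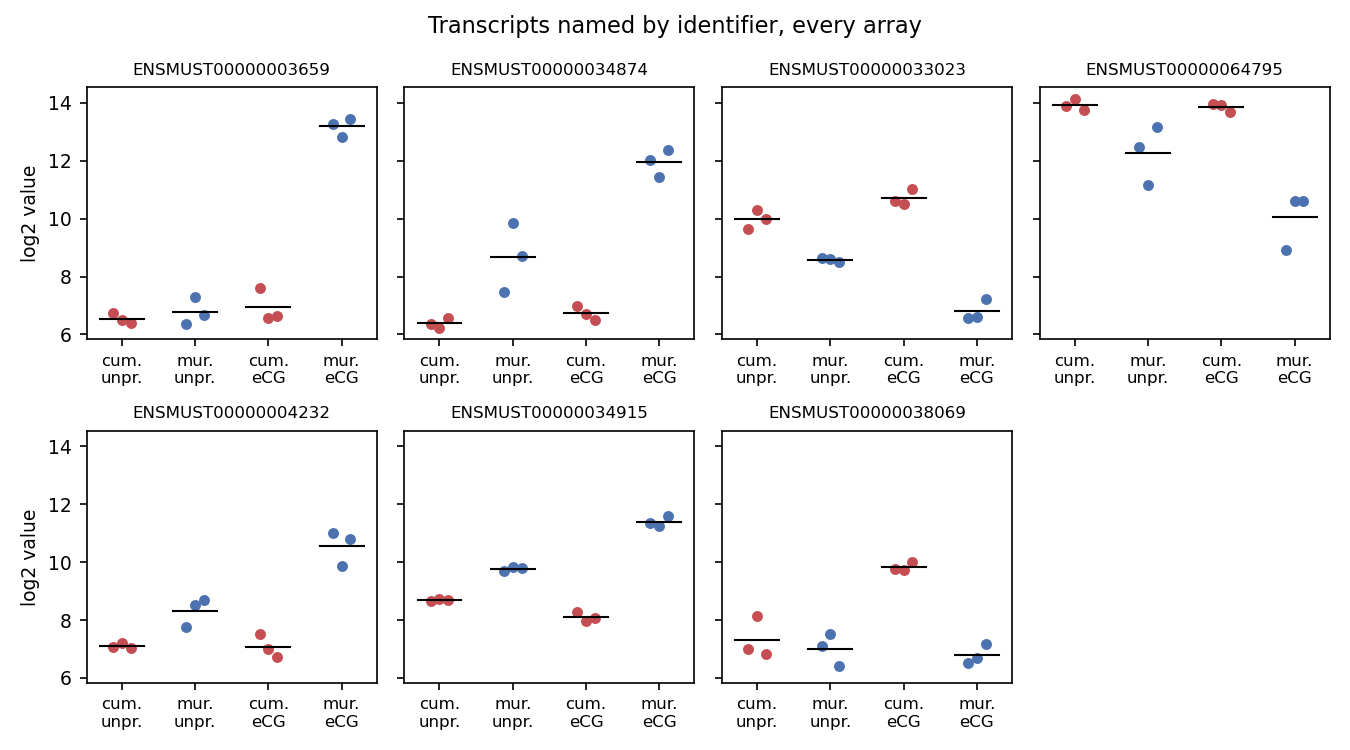
Log2 values (y axis) of 7 transcripts on every array, by group (x axis: cum., cumulus; mur., mural; unpr., unprimed; eCG, stimulated); points are arrays and bars are means of 3. ENSMUST00000003659 is high in stimulated mural cells only, at 12.83 to 13.46, and ENSMUST00000064795 is near 14 in both cumulus groups.

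Brighter rows were more often called higher in cumulus cells. The tested rows were divided into 5 bins of equal size by their mean over all 12 arrays. Brightness depends on the probes of a row as well as on the transcript, so the bins order signals and not amounts of RNA. In the dimmest bin 15.1% of rows were called higher in cumulus and 16.2% higher in mural cells, while in the brightest bin the shares were 36.6% and 16.9%. The mural share changed little across the bins, from 16.2% to 19.1%. The median difference of the brightest bin was 0.14 on the log2 scale, against 0.00 in the dimmest. This gradient depended on the scaling of the arrays. Of the called rows in the brightest bin, 68.4% were higher in cumulus cells with the values as deposited, 72.4% after centring each array on its median, 56.6% when quantile normalization was repeated and 53.1% with cyclic loess, which removes shifts that depend on brightness. In the dimmest bin the shares under the same settings were 48.2%, 53.8%, 52.0% and 47.5%. The 2-fold calls of the brightest bin even turned, from 108 higher in cumulus and 79 higher in mural cells as deposited to 76 and 101 when quantile normalization was repeated and 72 and 104 under cyclic loess.

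**Figure D3:**
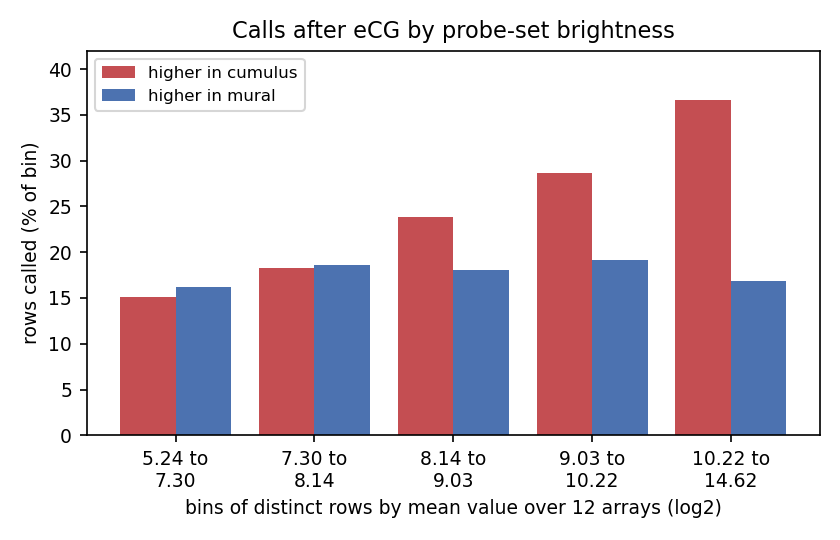
Share of distinct rows called higher in cumulus or in mural cells after eCG (y axis, percent of each bin) in 5 bins of the mean value over 12 arrays (x axis, log2 range of the bin). The cumulus bars climb from 15.1% to 36.6% while the mural bars stay between 16.2% and 19.1%.

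The same rows were then read on the 6 arrays of unprimed mice, which the stimulated difference does not use, although the fit shares 1 estimate of the spread of each row. The larger the difference after eCG, the more often it was also called in unprimed mice. Among rows at least 4-fold higher in mural cells after eCG, 85 of 103 (82.5%) were called higher in mural cells of unprimed mice, against 10.3% of all tested rows. Among rows at least 4-fold higher in cumulus cells, 40 of 51 (78.4%) were called higher in cumulus cells of unprimed mice, against 11.3% of all tested rows. For differences of 2-fold to under 4-fold these shares were 66.5% of 466 rows on the mural side and 61.3% of 457 rows on the cumulus side. For called differences under 2-fold they were 34.5% of 2419 rows and 32.6% of 3606 rows.

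Separation of the unprimed arrays gave the same order without use of the estimated spread. In unprimed mice all 3 cumulus arrays lay above all 3 mural arrays in 49 of the 51 rows at least 4-fold higher in cumulus cells after eCG (96.1%, against 24.4% of all tested rows). All 3 mural arrays lay above all 3 cumulus arrays in 86 of the 103 rows at least 4-fold higher in mural cells (83.5%, against 17.8%). For called differences under 2-fold these shares were 56.4% on the cumulus and 53.5% on the mural side. Of the 16809 tested rows, 18 were called in opposite directions at the 2 stages, 15 of them higher in mural cells before and in cumulus cells after eCG and 3 the reverse.

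**Figure D4:**
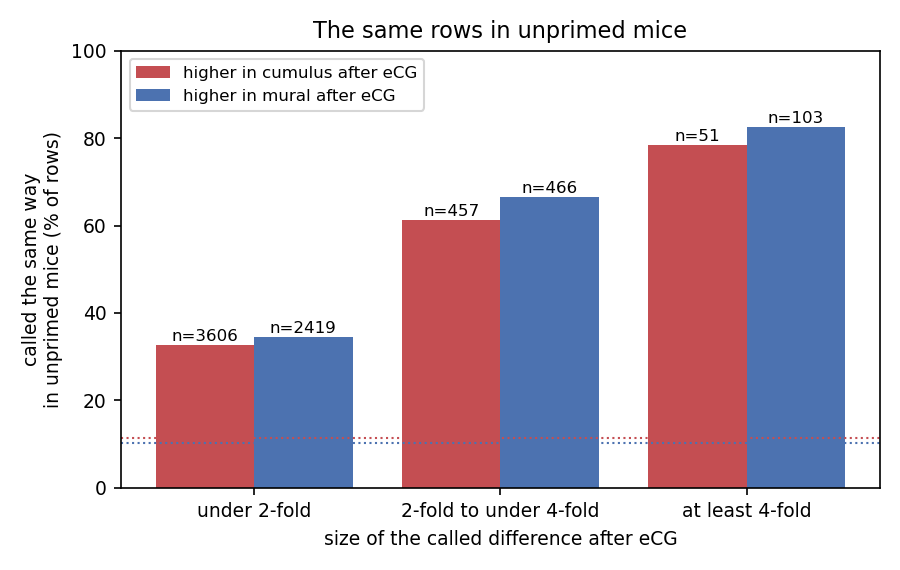
Share of rows called the same way in unprimed mice (y axis, percent) by the size of the called difference after eCG (x axis); bars show rows higher in cumulus or in mural cells with the number of rows above them, and dotted lines show the share among all tested rows (11.3% and 10.3%). The shares climb from 32.6% and 34.5% to 78.4% and 82.5%.

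The size of the difference was smaller before eCG in the rows chosen for a large difference after it, which choosing by size would also give. Over the 103 rows with a mural excess of at least 4-fold, the median log2 difference of cumulus minus mural was -2.33 after and -1.21 before stimulation. The median log2 value of these rows in mural cells was 9.59 after and 8.51 before, and in cumulus cells 6.94 after and 6.80 before. Over the 51 rows at least 4-fold higher in cumulus cells, the median difference was 2.43 after and 1.35 before. Their median value in cumulus cells was 10.31 after and 10.15 before, and in mural cells 7.81 after and 8.73 before. In both sets the median of the mural cells thus lay further from its unprimed value than that of the cumulus cells, a description of chosen rows that was given no test.

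The change of the difference between the stages was tested over all rows as an interaction. It passed in 542 rows (3.22%), of which 306 (1.82%) had a higher and 236 (1.40%) a lower value of cumulus minus mural after eCG. The difference between the cell types was larger in size after eCG in 486 of the 542 and smaller in 56. The same share was not taken over all tested rows, so whether 486 of 542 is particular to these rows is not known. Calls between the cell types were also more frequent over all tested rows after eCG (42.3%) than in unprimed mice (21.6%). These counts rested on few arrays. Among stimulated arrays, leaving out cumulus replicate 1 gave 202 higher rows, cumulus replicate 2 gave 176 higher and 151 lower, cumulus replicate 3 gave 372 lower, mural replicate 1 gave 129 higher and 114 lower, and mural replicate 2 gave 174 higher. Among unprimed arrays, leaving out cumulus replicate 1 gave 149 higher and 134 lower, cumulus replicate 2 gave 196 and 140, cumulus replicate 3 gave 132 and 116, mural replicate 1 gave 170 and 141, and mural replicate 3 gave 651 higher. Array weights gave 1322 higher and 873 lower, and the added control covariate described below gave 25 and 76.

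Of the transcripts whose mean exceeded the filter level in all 4 groups and whose stimulated groups did not overlap, ENSMUST00000004232 and ENSMUST00000034915 had the lowest interactions. ENSMUST00000034915, which shared its values with 2 other transcripts, was tightly measured. After eCG its log2 values were 11.37, 11.25 and 11.59 in mural and 8.27, 7.96 and 8.06 in cumulus cells, a 9.91-fold difference. In unprimed mice they were 9.70, 9.85 and 9.80 in mural and 8.65, 8.73 and 8.69 in cumulus cells. The cell types did not overlap at either stage, and they moved in opposite directions with stimulation (interaction -2.22 ± 0.15 SE, limma adjusted p = 3e-05). ENSMUST00000004232 lay at 11.02, 9.86 and 10.80 in stimulated mural and at 7.53, 6.99 and 6.73 in stimulated cumulus cells. Its unprimed values were 7.76, 8.51 and 8.68 in mural and 7.08, 7.20 and 7.02 in cumulus cells, so the mural values were higher at both stages with a wider gap after eCG (interaction -2.27 ± 0.42, limma adjusted p = 0.014). With the added control covariate this interaction was not called (-2.63, limma adjusted p = 0.13).

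By the same rule ENSMUST00000038069 and ENSMUST00000033023 had the highest interactions. ENSMUST00000038069 lay at 9.77, 9.73 and 10.02 in stimulated cumulus and at 6.52, 6.69 and 7.16 in stimulated mural cells. In unprimed mice the cell types overlapped, at 7.00, 8.14 and 6.82 in cumulus and 7.11, 7.51 and 6.40 in mural cells (interaction 2.74 ± 0.47 SE, limma adjusted p = 0.0076). With the added control covariate it was not called (2.24, limma adjusted p = 0.27). For ENSMUST00000033023 the interaction was 2.53 ± 0.28 (limma adjusted p = 0.00049). The stimulated mural means of both, 6.79 and 6.81, were close to the filter level, so these sizes are not exact.

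Control rows gave values for a few named genes. The array carries rows for the 3′ end, middle and 5′ end of beta-actin (Actb, a cytoskeletal protein), Gapdh (a glycolytic enzyme), the transferrin receptor (Tfrc, which takes up iron), pyruvate carboxylase (Pcx, which makes oxaloacetate from pyruvate) and 18S rRNA, as well as mouse repeats. Adjusted p-values of these rows are limma values over 64 control rows, of which 31 were called (48.4%). All 24 added bacterial rows (described below) are among those called, and this can lower the adjusted p-values of the mouse rows. The mouse rows were not adjusted on their own, so their calls with adjusted p near 0.05 depend on this choice of rows. Of the 19 mouse rows 3 were called, and 1 without stimulated mural replicate 2.

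Pcx differed in its 3′ row. Its log2 values were 7.46, 7.77 and 7.30 in cumulus and 8.69, 8.45 and 8.59 in mural cells, with no overlap between the groups. The difference was -1.07 ± 0.11 (SE), or 2.10-fold higher in mural cells (limma adjusted p = 5.1e-05). In unprimed mice the values were 7.96, 7.78 and 7.92 in cumulus and 8.14, 8.23 and 8.23 in mural cells. They did not overlap there either, although the difference of -0.31 was not called (limma adjusted p = 0.15). The change between the stages passed the test (interaction -0.76 ± 0.16, limma adjusted p = 0.014). The other Pcx rows did not pass, with differences of 0.13 ± 0.07 in the 5′ row and 0.12 ± 0.08 and -0.16 ± 0.09 in the middle rows. The 5′ row and 1 middle row had stimulated means of 5.83 to 6.66, at or under the filter level, whereas the other middle row was above it, at 7.34 in cumulus and 7.22 in mural cells. The rows of this gene therefore disagree.

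The 3′ rows of Actb and Gapdh overlapped between the cell types. The Actb 3′ row lay at 14.30, 14.32 and 14.34 in cumulus and at 14.29, 14.32 and 14.35 in mural cells, with a difference of 0.00 ± 0.05 (SE). For Gapdh the 3′ values were 14.42, 14.34 and 14.48 in cumulus and 14.42, 14.36 and 14.36 in mural cells, with a difference of 0.03 ± 0.06. Both rows were near the top of the range of the arrays. In the less bright Actb 5′ row all mural arrays, at 13.48, 13.49 and 13.60, lay above the cumulus arrays, at 13.13, 13.19 and 13.47 (difference -0.26 ± 0.10 SE, limma adjusted p = 0.054). The Gapdh 5′ row overlapped, with a difference of 0.22 ± 0.18 (limma adjusted p = 0.30). The middle row of Tfrc was called, at 6.49 ± 0.01 (SD, n = 3) in cumulus and 6.23 ± 0.04 in mural cells (difference 0.26 ± 0.09 SE, limma adjusted p = 0.039), but both means were under the filter level. The third call was a repeat row, at 10.38 ± 0.14 in cumulus and 10.73 ± 0.19 in mural cells (SD, n = 3; difference -0.35 ± 0.10 SE, limma adjusted p = 0.019).

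**Figure D5:**
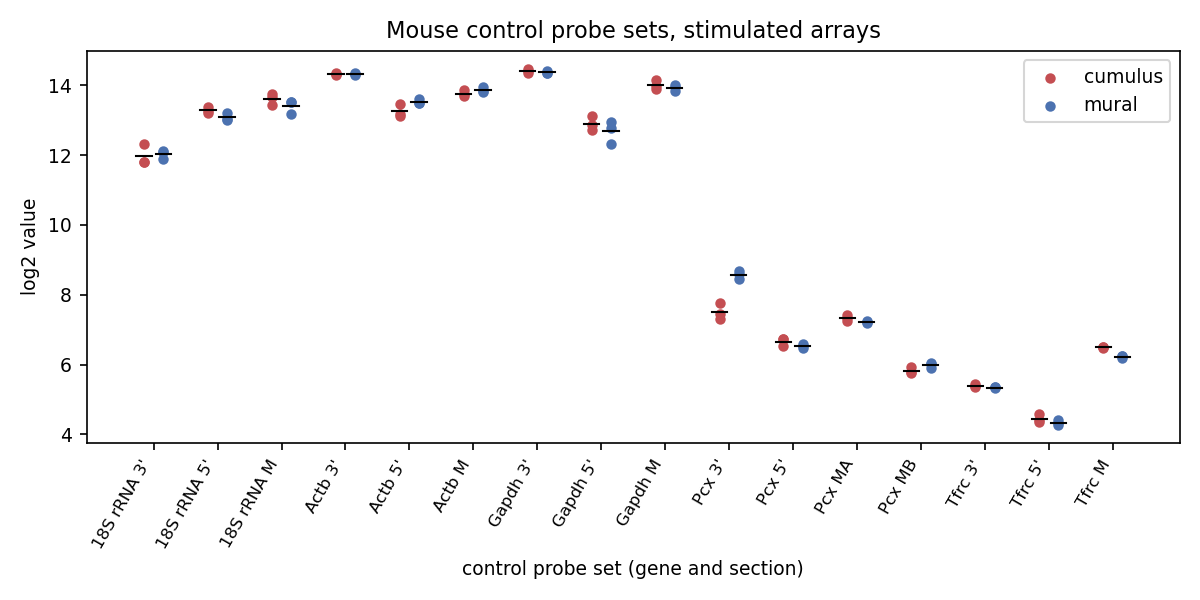
Log2 values (y axis) of the named mouse control rows (x axis: gene and section; M, MA and MB are middle sections) in stimulated cumulus and mural cells; points are arrays and bars are means of 3. The Pcx 3′ row separates the cell types, at 7.30 to 7.77 in cumulus and 8.45 to 8.69 in mural cells, and the Actb and Gapdh 3′ rows coincide near 14.

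Other control rows moved with the comparison. The rows for dap, lys, phe and thr detect bacterial RNAs that are commonly added before amplification. All 24 were called higher in the stimulated cumulus arrays, with a median log2 difference of 1.00 (0.62 to 1.40). Their mean was 8.63, 8.79 and 8.43 on cumulus replicates 1, 2 and 3, and 7.57, 7.57 and 7.75 on the mural ones. In unprimed mice the median difference was 0.27, and limma called 0 of the 24 (3 at an unadjusted p under 0.05). The interaction between cell type and stage was called in 18 of these 24 bacterial rows, with a median of 0.82 (0.34 to 1.04). With this mean as a covariate the comparison called 329 rows higher in cumulus and 587 higher in mural cells, of which 792 had been called in the same direction without it. The standard errors were then 2.26 times as large in the median, and regressing these log2 differences on the uncorrected ones gave a slope of 0.885 (Pearson r = 0.742). The covariate did not overlap between the stimulated cell types (difference of means 0.983). The adjusted differences therefore reach beyond its spread within groups, and on these arrays its effect and that of cell type cannot be told apart. The difference of the 3′ and 5′ rows, a measure of how complete the amplified RNA was, was 1.17, 1.13 and 0.87 for Actb in cumulus and 0.81, 0.83 and 0.75 in mural cells (two-sided exact permutation p = 0.1, the smallest that 3 against 3 allows). For Gapdh it overlapped, at 1.37 to 1.62 in cumulus and 1.48 to 2.05 in mural cells (two-sided exact permutation p = 0.5). The part of RNA completeness in the called differences was not tested.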

How the data were processed

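The deposited values are log2 signals of probe sets, which the authors made by RMA in the affy package, per the submitters' processing notes. RMA makes the distributions of the arrays alike, so a shift shared by most transcripts is removed. Versions, array model and probe set definition are not given in the sources used. Amplification began from 20 ng of total RNA and took more than 1 round, per the labels' protocols, which favours 3′ ends. Array medians were 7.30 to 7.38, and precision is limited by 3 arrays per group. At most 0.0632% of values were identical between any pair of arrays.

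Identical rows were collapsed and filtered as described above. A model with 1 mean per group was fitted in limma 3.58.1 (lmFit, then eBayes; R 4.3.3) over all 12 arrays, with Benjamini-Hochberg adjustment over 16809 rows and a threshold of 0.05. Control rows were fitted apart and adjusted over 64. The procedure was tested on simulated data. Figures were drawn with matplotlib 3.10.9. The RefSeq gene table (GRCm38.p6) matched 0 rows, so planned marker lists were not run. Named transcripts are the 2 in each direction with the largest value among called rows whose stimulated groups did not overlap and whose means exceeded the filter level in every group compared. The comparison, lists and settings were chosen with earlier results of these data known. Alternatives were scaling, filters, array weights, a replicate block, the added control covariate, the prior, the stimulated arrays alone and leaving out each array. Deviations of same-numbered arrays correlated at 0.202, 0.147 and -0.129 for stimulated mice, against -0.436 to 0.275 for unlike numbers. For unprimed mice they correlated at 0.0823, 0.312 and 0.412, against -0.364 to 0.12. The labels do not say whether arrays of the same number came from the same mice. The main fit did not take the numbers as pairs, and the replicate block was run as an alternative.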

Additional observations from a re-analysis of the deposited data

Results flagged for a closer look

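The following differences between cumulus and mural cells changed between unprimed and stimulated mice by the limma interaction test. The interaction on the log2 scale was -6.02 for ENSMUST00000003659, -2.93 for ENSMUST00000034874, -2.27 for ENSMUST00000004232 and -2.22 for ENSMUST00000034915, all towards mural cells after eCG. It was 2.74 for ENSMUST00000038069 and 2.53 for ENSMUST00000033023, towards cumulus cells. For the Pcx 3′ control row it was -0.76, while the other 3 Pcx rows did not pass. The interactions of ENSMUST00000004232 and ENSMUST00000038069 were not called with the added control covariate, while those of ENSMUST00000034915 and ENSMUST00000033023 were. For ENSMUST00000003659, ENSMUST00000034874 and the Pcx 3′ row the interaction was not checked with that covariate. The interactions of ENSMUST00000003659, ENSMUST00000034874, ENSMUST00000038069 and ENSMUST00000033023 are not exact in size, since some of their group means lie near or under the filter level. Of the 24 added bacterial control rows, 18 also passed the interaction test (median 0.82). Groups of 3 arrays were too small for a search for outlying samples.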

How the results depend on the processing

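The comparison after eCG kept its counts within 1.5 times in each direction under every setting run except the added control covariate. That fit called 329 rows higher in cumulus and 587 higher in mural cells, with 239 at 2-fold or more on the cumulus side and 184 at 4-fold or more on the mural side. In it the interaction called 25 higher and 76 lower, and ENSMUST00000004232 (-2.63, limma adjusted p = 0.13) and ENSMUST00000038069 (2.24, limma adjusted p = 0.27) were no longer called. Array weights called 1322 higher and 873 lower in the interaction, with a weight of 9.28 on unprimed mural replicate 1. Without single arrays the rows higher numbered 3100 to 4373 in cumulus and 2387 to 3177 in mural cells, and the interaction counts 129 to 651 higher and 114 to 372 lower. With the replicate number as a block, 4179 rows were higher in cumulus and 3114 in mural cells, and only the hybridization controls (0 called) changed by over 1.5 times. Of 18 hybridization control rows 4 were called, 2 with the stimulated arrays alone, 10 with median centring and 0 to 10 without single arrays. Mouse control rows called numbered 1 to 4 without single arrays. The 4 transcripts named for the comparison after eCG kept direction and call under all 23 alternatives, and the Pcx 3′ row under all 15 of its own. The causes of these changes were not tested. Arrays give no counts, so values near the filter level limit what can be sized.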
